A study of Homo sapiens with 18 samples.

Results

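The transcription factor p53 switches on a set of genes that stop the cell cycle, repair DNA, trigger cell death or feed back on p53 itself, and 30 of these target genes were followed in human melanoma cells treated with A-485. The 30 were taken by name from genes widely listed as p53 targets, out of 19775 genes that the arrays read through a probe set with a single gene symbol, and each gene was read from its brightest probe set by the mean over all 18 arrays. Of the 30, 28 had such a probe set and 27 passed the filter on low values, which kept 13933 genes in all. SPATA18, a mitochondrial quality control gene, lay at or below the floor of 32 on every array, and BTG2 and FDXR were not analysed here. A-485 is a small molecule that blocks the acetyltransferase activity of the related coactivators p300 (EP300) and CBP (CREBBP). The 3 established melanoma cell lines, SKMEL5, WM2664 and A375, were grown in RPMI with 10% FBS and received A-485 or DMSO for 6 h or 24 h, which gave 12 groups of line, treatment and time. Each of the 6 DMSO groups held 2 arrays and each of the 6 A-485 groups a single array. The labels give the A-485 dose as 3 mM, a unit that was not checked here. The series counts 2 of the lines as sensitive and 1 as resistant without naming them.

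As background, p53 is kept scarce in unstressed cells by its target MDM2, which marks it for destruction, and it accumulates when DNA damage or other stress breaks that loop. It then binds pairs of short half-sites in its target genes and recruits coactivators, among them p300 and CBP, which acetylate both p53 and the neighbouring histones. Many of the target genes also answer to other transcription factors.

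The start-site sequences of the members with the clearest differences are shown first, with every match to the p53 half-site (the 10-base consensus known by that name) in capitals. The sequences are from RefSeq on GRCh38.p14, each written 5′ to 3′ on the strand of its gene. A window of 250 bases before to 50 bases after a start was at hand for 35 starts of 23 of the 30 genes, and both strands were searched for the half-site, which reads as the same pattern on either strand. FBXO22, GADD45A, PHLDA3, RRM2B, TNFRSF10A, TNFRSF10B and TP53INP1 were not among the 23. PLK2, whose transcript fell in every line, held 1 half-site 132 bases before its start, inside the 150 bases printed here (chr5:58460087-58460236, minus strand). DDB2 held 2 half-sites 1 base apart, at 6 and 17 bases from its start, the only member with a full site (2 half-sites at most 13 bases apart), shown in 30 bases (chr11:47214974-47215003, plus strand). AEN and FAS held 1 half-site each, 34 and 122 bases before a start, shown in 30 bases each (chr15:88621296-88621325, plus strand, and chr10:88991299-88991328, plus strand). TP53I3 and FUCA1, which were higher after 24 h, and GDF15, which was lower, had no match in their windows, and their 150 bases before the start are printed for comparison (chr2:24084835-24084984, minus strand; chr1:23868291-23868440, minus strand; chr19:18386008-18386157, plus strand).
PLK2: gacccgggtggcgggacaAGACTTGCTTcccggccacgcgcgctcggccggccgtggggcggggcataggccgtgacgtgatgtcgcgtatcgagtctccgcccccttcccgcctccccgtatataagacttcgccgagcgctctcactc
DDB2: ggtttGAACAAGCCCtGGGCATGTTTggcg
AEN: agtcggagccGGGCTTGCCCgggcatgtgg
FAS: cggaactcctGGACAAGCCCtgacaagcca
TP53I3: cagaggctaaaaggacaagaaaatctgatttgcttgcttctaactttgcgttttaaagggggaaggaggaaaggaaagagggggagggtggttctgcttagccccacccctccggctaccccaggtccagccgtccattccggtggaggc
FUCA1: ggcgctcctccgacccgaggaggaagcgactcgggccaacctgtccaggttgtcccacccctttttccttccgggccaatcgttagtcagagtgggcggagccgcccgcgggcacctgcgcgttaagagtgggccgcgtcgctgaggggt
GDF15: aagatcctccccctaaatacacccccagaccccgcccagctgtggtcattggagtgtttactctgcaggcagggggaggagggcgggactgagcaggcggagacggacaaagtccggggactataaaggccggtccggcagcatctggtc

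A half-site was found in 6 of the 35 windows (17.1%) and in 6.63% of all 35116 windows, and a full site in 1 of 35 (2.86%) and in 10 of all windows (0.0285%). SESN1 and FDXR held the remaining matches, 49 and 11 bases before a start. A match describes letters only, and a window without one says nothing of sites elsewhere in the gene.

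All values below are quantile-normalized intensities with a floor of 32, and differences are on the log2 scale with their SE from limma. The number of arrays limits the precision, and the median SE over all genes was 0.13 for 1 line at 1 time. Whether replicate arrays came from separate cultures is not labelled, so a p-value reflects the spread between these arrays alone, possibly a technical one, and each single A-485 array was assumed to vary like the DMSO pairs. DMSO pairs correlated at 0.990 to 0.994 across genes, and each array read 56.9% to 58.5% of the genes above the floor. The melanocyte markers summed to 47111 to 48741 on the DMSO arrays of SKMEL5, 32308 to 34746 in WM2664 and 1324 to 1943 in A375, where the highest was SOX10 with a mean of 781, so A375 read low for its labelled cell type. All 4 leukocyte markers on the array lay at the floor in SKMEL5 and WM2664, and in A375 the highest was LYZ at 79.0. Of the fibroblast markers, 4 of 7 lay at the floor in SKMEL5 and in WM2664 and 3 of 7 in A375, with LUM, COL1A2 and COL1A1 the highest in the 3 lines in that order. Of the 6 keratinocyte markers, 3 to 5 lay at the floor in each line, and KRT10 was the highest. Each DMSO array was compared with the other of its pair, a screen that the single A-485 arrays could not be given. Among the DMSO arrays, 3 stood apart by carrying low levels of transcripts high in another line. These were WM2664 at 6 h replicate 1 (a median excess of 1.94% of the SKMEL5 level), A375 at 6 h replicate 1 (0.720% of the SKMEL5 level) and WM2664 at 24 h replicate 2 (0.988% of the A375 level). Each belongs to a DMSO pair, so leaving them out takes the spread of every gene from fewer pairs. A call can then be lost with its difference unchanged, also in SKMEL5, where no array was left out. Without these 3 arrays 125 of 169 calls among the p53 target genes over all comparisons were kept, and values without them are given beside several results below.

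Without A-485 the 3 lines differed widely in some p53 targets and little in others. The largest differences were those of GDF15, a secreted stress cytokine, and TNFRSF10A, the TRAIL receptor DR4. GDF15 read 7231 to 8063 on the 4 DMSO arrays of SKMEL5, 4143 to 4261 in WM2664 and 213 to 308 in A375, and A375 differed from SKMEL5 by -4.86 ± 0.11 and from WM2664 by -4.03 ± 0.11 (log2, adjusted p 7.41e-09 and 2.06e-08). TNFRSF10A was at the floor on all SKMEL5 and WM2664 arrays and read 499 to 588 on the DMSO arrays of A375, at least 4.09 higher on the log2 scale. The ranges of the 3 lines did not overlap for GDF15, and for TNFRSF10A that of A375 lay apart from the other lines. In these bulk extracts, fewer expressing cells and less RNA per cell cannot be told apart.

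TP53INP1, a p53-induced nuclear protein that promotes arrest and autophagy, was also lower in A375, at 48.8 to 54.8 against 212 to 245 in SKMEL5 and 175 to 213 in WM2664 (-2.13 ± 0.05 and -1.87 ± 0.05). ZMAT3, an RNA-binding growth suppressor, read 278 to 401 in A375, 1051 to 1138 in SKMEL5 and 1569.8 to 2162 in WM2664 (-1.74 ± 0.11 and -2.44 ± 0.11). PLK2, a polo-like kinase of the stress response, stood the other way, with 3069.8 to 3718 in A375 against 1011 to 1125 and 1368 to 1526 (1.68 ± 0.06 and 1.27 ± 0.06). FAS, the death receptor, was likewise highest in A375 at 441 to 584, with 310.1 to 363 in WM2664 and 147 to 169 in SKMEL5 (1.68 ± 0.08 against SKMEL5 and 0.61 ± 0.08 against WM2664). For these 4 genes the range of A375 overlapped that of no other line. MDM2, the feedback inhibitor, had overlapping ranges of 1226 to 1355, 962 to 1466 and 806 to 1255 in SKMEL5, WM2664 and A375, and none of the 3 differences passed the test (adjusted p 0.29 to 1).

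WM2664 against SKMEL5 had 7 members higher and 12 lower of 27, where 29.1% and 32% of all genes tested were higher and lower. A375 had 13 higher and 11 lower than SKMEL5 (36.5% and 32.3% of all genes) and 12 higher and 9 lower than WM2664 (37.8% and 30.4%), and these comparisons share their A375 and SKMEL5 or WM2664 arrays. SKMEL5 had the highest mean level for 11 members, WM2664 for 5 and A375 for 11, and the lowest was SKMEL5 for 8, WM2664 for 9 and A375 for 9, with TNFRSF10A tied at the floor in SKMEL5 and WM2664. WM2664 was highest for CCNG1, a cyclin that guides the phosphatase PP2A to MDM2, at 4708 to 5059.5, and for POLH, a translesion DNA polymerase, at 149.7 to 169.7. SKMEL5 was highest for TIGAR, a regulator of glycolysis, at 1420.1 to 1626, and for FUCA1, a lysosomal fucosidase, at 825 to 976. The order for TNFRSF10B, the TRAIL receptor DR5, depended on the probe set: A375 was lower by the brightest one (-0.52 against SKMEL5 and -0.64 against WM2664) and differed by 0.04 and 0.04 by the mean of its 4 probe sets. The GDF15 levels rest on 1 probe set that may read related sequences, since its other probe sets were at the floor on all arrays but 1.

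**Figure D1:**
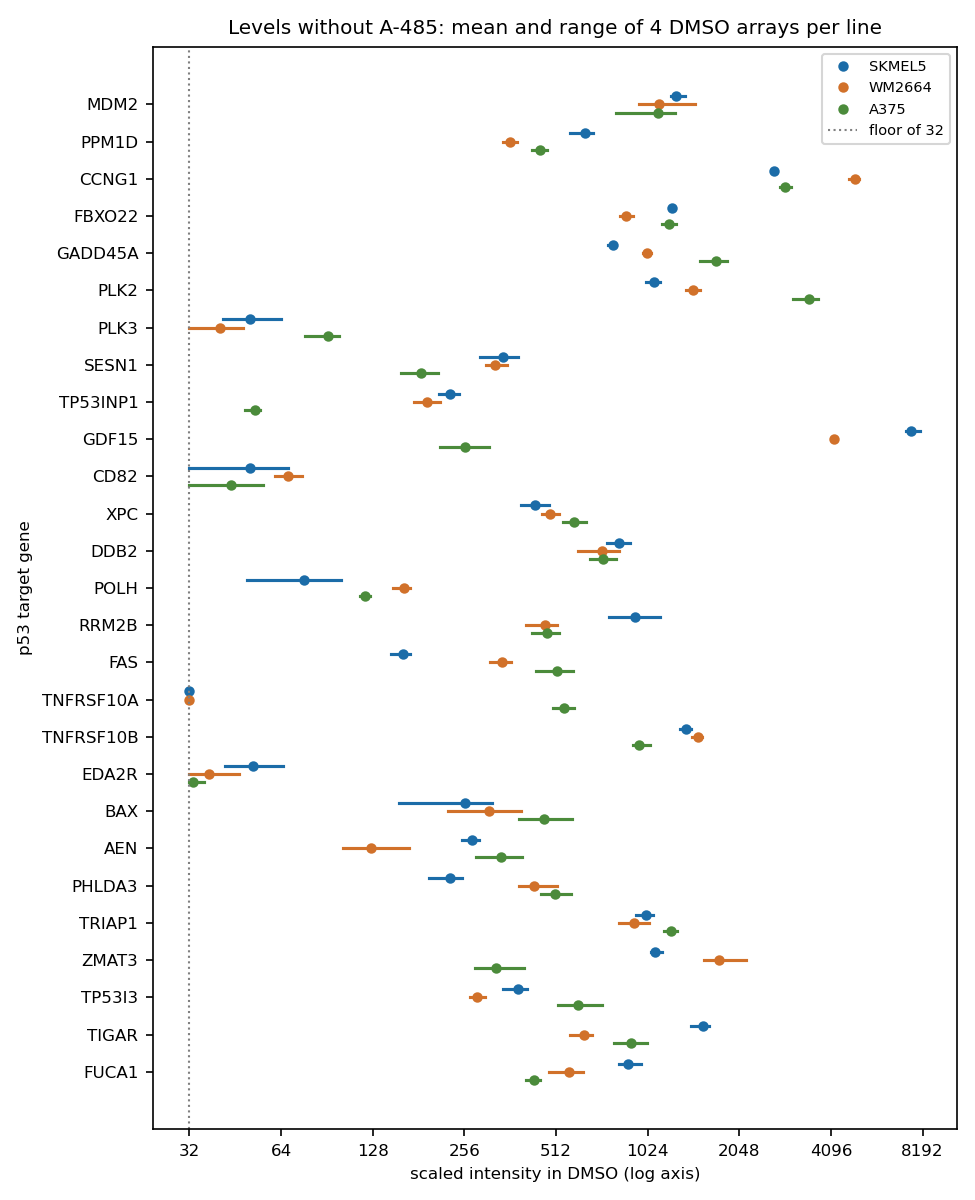
Scaled intensity (log axis) of the 27 tested p53 target genes on DMSO arrays, with the mean (point) and the range of 4 arrays (line) in each cell line and the floor of 32 dotted. Lines should be compared within a gene only: GDF15 and TNFRSF10A differ most, and the MDM2 ranges overlap.

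With A-485, p53 targets rose and fell in every line, and the median of the 27 stayed near that of all genes. At 6 h, 3 of 27 rose and 1 fell in SKMEL5, where 12.5% and 9.46% of all genes tested rose and fell. WM2664 had 6 that rose and 5 that fell (15% and 10.8% of all genes), and A375 had 1 and 7 (5.78% and 6.93%). At 24 h the numbers that rose and fell were 5 and 7 in SKMEL5 (20.3% and 15.3%), 7 and 6 in WM2664 (17.8% and 14.7%) and 2 and 5 in A375 (9.05% and 8.41%). The median difference of the 27 lay between -0.10 and 0.12 in the 6 comparisons, and that of all genes tested at 0 to 2 decimals. TP53INP1 rose and PLK2 fell in all 3 lines at 6 h, and at 24 h TP53INP1 and TP53I3 rose and PLK2 and DDB2 fell in all 3. Of all genes tested, 2.45% rose and 2.26% fell in all 3 lines at 6 h, and 3.68% and 2.05% at 24 h. Among the members 15 of 27 were called in no line at 6 h and 9 at 24 h (62.1% and 46.9% of all genes tested), and MDM2, PPM1D, PLK3, SESN1, RRM2B, EDA2R, BAX, TRIAP1 and ZMAT3 were called in none of the 6 comparisons, as were 39.2% of all genes.

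Another scaling, to the 75th percentile, kept 159 of 169 calls among the members over all comparisons, which include 19, 24 and 21 calls between lines with DMSO. Of the A-485 calls in a single line, those of PLK2 in A375 at both times were the only ones kept under every alternative. Left unscaled, as deposited, with the floor lowered to 1 in the same step, the values gave 0 calls by limma in SKMEL5 and WM2664 at both times (7 to 11 of 28 members at an unadjusted p under 0.05) and 1 in A375 at each time, PLK2. That setting moved the median difference of all genes to 0.33 in SKMEL5 and 0.44 in WM2664 at 6 h and to 0.23 in WM2664 at 24 h. Counts under an alternative stand here without the share of all genes called in the same setting. They are not read as particular to the p53 targets. Without the 3 arrays that stood apart, the counts were 8 in WM2664 at 24 h, 3 in A375 at 6 h and 4 in A375 at 24 h, in place of 13, 8 and 7. Fitted on the 6 arrays of a line alone, an alternative chosen after the data were seen, they were 2 in SKMEL5 and 3 in WM2664 and in A375 at 6 h, and 3 in A375 at 24 h. These fits kept 10 of 16 calls in SKMEL5, 11 of 24 in WM2664 and 4 of 15 in A375, among them PLK2 in every line at both times and DDB2 in every line at 24 h.

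**Figure D2:**
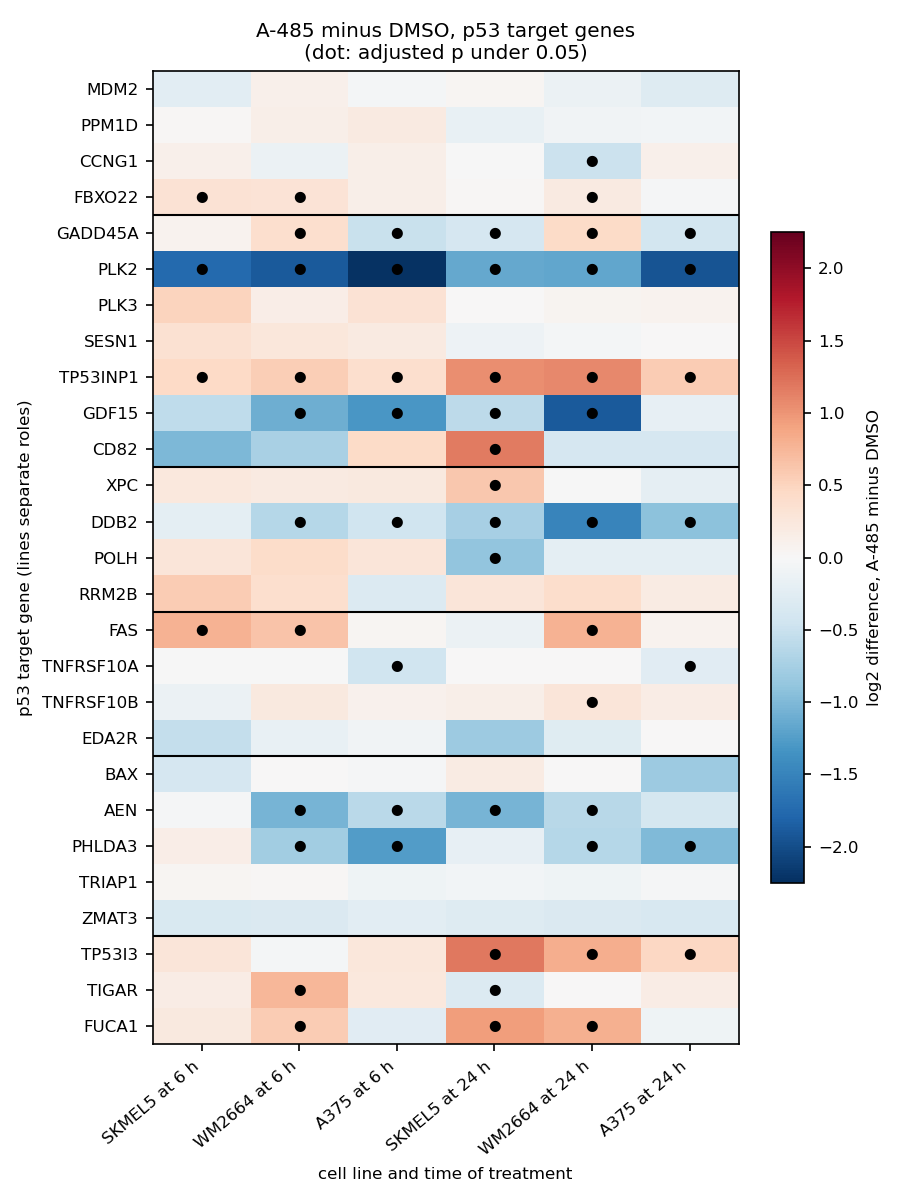
Log2 difference of A-485 minus DMSO (colour) for the 27 tested p53 target genes (rows, grouped by role) in each cell line and time (columns), with a dot where the adjusted p was under 0.05. PLK2 is the one row that is lower with a dot in all 6 columns and TP53INP1 the one that is higher with a dot in all 6.

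Among the feedback inhibitors, none rose or fell in all lines. MDM2 read 1355 and 1263 with DMSO and 1105 with A-485 in SKMEL5 at 6 h, 1075 and 962 against 1102 in WM2664 and 1255 and 1219.7 against 1201 in A375. At 24 h the values were 1226 and 1229.8 against 1261 in SKMEL5, 1466 and 1016 against 1119.7 in WM2664 and 1211 and 806 against 809.6 in A375. The DMSO pairs of WM2664 and A375 at 24 h were far apart, and the 6 differences ran from -0.29 to 0.12 with an SE of 0.26, so differences of this size could not be told from the spread between arrays. The mean over lines was -0.06 ± 0.15 at 6 h and -0.12 ± 0.15 at 24 h (adjusted p 0.823 and 0.555). PPM1D, the phosphatase WIP1 that switches off damage signalling, had differences from -0.17 to 0.21, none of which passed the test (SE 0.08).

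FBXO22, part of a ubiquitin ligase for p53, rose at 6 h in SKMEL5, from 1255 and 1249 to 1572, and in WM2664, from 864 and 829.9 to 1052 (0.33 ± 0.06 and 0.31 ± 0.06, adjusted p 0.00801 and 0.00825). In A375 it read 1143 and 1199 against 1290.3 (0.14 ± 0.06, adjusted p 0.213). The WM2664 rise missed the threshold with the mean of the 5 probe sets (adjusted p 0.0816) and with the WM2664 arrays alone (0.0837). At 24 h it rose in WM2664 by 0.21 ± 0.06 (adjusted p 0.0371), a call lost without WM2664 DMSO 24 h replicate 2, 1 of the arrays that stood apart (log2 difference 0.16), or without either SKMEL5 DMSO array of 6 h (adjusted p from 0.0518 to 0.112). It was also lost with the replicate block, which adds the replicate number to the model (adjusted p 0.0639). CCNG1 fell in 1 of the 6 comparisons, WM2664 at 24 h, from 4708 and 4899 to 3423 (-0.49 ± 0.05, adjusted p 0.00032).

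Of the genes of cell cycle arrest and growth control, PLK2 fell in every line at both times, with the largest difference of any member in each line at 6 h. In SKMEL5 PLK2 read 1125 and 1101 with DMSO and 333 with A-485 at 6 h, and 1011 and 1073 against 466 at 24 h. WM2664 gave 1526 and 1470.3 against 405 at 6 h and 1396 and 1368 against 618 at 24 h. A375 gave 3718 and 3456 against 764 at 6 h and 3626 and 3069.8 against 863 at 24 h. Every A-485 array thus lay far below its DMSO pair, and A375, which had the highest level with DMSO, also had the highest with A-485. The differences at 6 h were -1.74 ± 0.10, -1.89 ± 0.10 and -2.23 ± 0.10 in SKMEL5, WM2664 and A375 (3.34-, 3.7- and 4.69-fold, adjusted p 4.11e-05, 1.99e-05 and 1.24e-05). At 24 h they were -1.16 ± 0.10, -1.16 ± 0.10 and -1.95 ± 0.10 (adjusted p 0.000116, 0.000141 and 1.82e-05). With unscaled values the falls in SKMEL5 and WM2664 missed the threshold, at -1.38 and -1.34 at 6 h and -1.20 and -0.82 at 24 h (adjusted p 0.0613 to 0.166).

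GDF15 fell in WM2664 at both times and in the other lines at 1 time each. WM2664 read 4143 and 4184 against 1951 at 6 h and 4168 and 4261 against 1134 at 24 h (-1.09 ± 0.19 and -1.89 ± 0.19, adjusted p 0.00467 and 0.000282). SKMEL5 read 7231 and 7231 against 4874 at 6 h (-0.57 ± 0.19, adjusted p 0.0716) and 8063 and 7444 against 5137 at 24 h (-0.59 ± 0.19, adjusted p 0.0434). A375 read 308 and 213 against 103 at 6 h and 244 and 275 against 229 at 24 h (-1.31 ± 0.19 and -0.18 ± 0.19, adjusted p 0.00401 and 0.662). All treated arrays lay below both their DMSO arrays, in A375 at 24 h by little. The higher of the A375 DMSO values at 6 h came from the array that carried SKMEL5 transcripts, and without the arrays that stood apart the A375 fall was -1.04 (adjusted p 0.0221). The A375 call was lost with the A375 arrays alone (adjusted p 0.153), every GDF15 call was lost without probe sets whose name marks possible cross-hybridisation, which leaves sets at the floor, and the SKMEL5 call was lost without any one of 10 DMSO arrays, all but those of A375 at 6 h (adjusted p 0.0602 to 0.129).

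TP53INP1 rose in every line at both times. Its values in SKMEL5 were 212 and 226 against 298 at 6 h and 245 and 239 against 501 at 24 h (0.44 ± 0.09 and 1.05 ± 0.09, adjusted p 0.00959 and 9.55e-05). Those in WM2664 were 175 and 187 against 266 and 213 and 199.5 against 437 (0.56 ± 0.09 and 1.08 ± 0.09, adjusted p 0.00284 and 9.83e-05). Those in A375, near the floor, were 54.6 and 52.9 against 70.2 and 54.8 and 48.8 against 76.4 (0.38 ± 0.09 and 0.56 ± 0.09, adjusted p 0.0267 and 0.00408). Every A-485 array lay above both of its DMSO arrays, and the rise at 24 h was about 2-fold in SKMEL5 and WM2664 (2.07 and 2.12). With the arrays of the line alone, the calls at 6 h in every line and that of A375 at 24 h missed the threshold. The A375 call at 6 h was lost without A375 DMSO 6 h replicate 1 or 2 (adjusted p 0.0614 and 0.0893), with the mean of 3 probe sets (0.093), with 75th-percentile scaling (0.0618) and with the replicate block (0.0552), and the SKMEL5 call at 6 h without the arrays that stood apart (0.0533).

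GADD45A, a stress sensor that binds cyclin-dependent kinase and repair proteins, was the 1 member called in opposite directions in different lines at the same time, which it was at both times (1.21% of all genes tested at 6 h and 3.23% at 24 h). It rose in WM2664, from 1028 and 999 to 1310.1 at 6 h and from 992 and 1052 to 1379 at 24 h (0.37 ± 0.08 and 0.43 ± 0.08, adjusted p 0.0158 and 0.00649). It fell in A375, from 1783 and 1859.6 to 1292 and from 1519.9 and 1737 to 1214 (-0.49 ± 0.08 and -0.42 ± 0.08, adjusted p 0.0087 and 0.0136). In SKMEL5 it read 795 and 756 against 822 at 6 h, which did not pass the test, and fell from 807 and 802 to 619 at 24 h (-0.38 ± 0.08, adjusted p 0.0108). Treated and DMSO arrays did not overlap in any of the 5 called comparisons. All 5 calls were lost without the arrays that stood apart, at nearly the same sizes (0.39, 0.47, -0.52, -0.42 and -0.38, adjusted p 0.0551 to 0.0925), and that of WM2664 at 6 h also without WM2664 DMSO 6 h replicate 2 (0.0593) and with 75th-percentile scaling (0.0809).

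The other genes of this role were called seldom. SESN1, a sestrin that restrains growth signalling, had differences from -0.12 to 0.35 (SE 0.17), and PLK3, a polo-like kinase, from 0.00 to 0.50 (SE 0.22), none of which passed the test. PLK3 was dim in SKMEL5 and WM2664, at 41.2 to 64.1 and 32 to 47.9 with DMSO, so small differences there are limited by the floor. CD82, a membrane protein that suppresses metastasis, lay near the floor. It read below both DMSO values in SKMEL5 at 6 h (32 against 62.3 and 67.3) and in WM2664 at 6 h and 24 h (40.3 and 51.9). In A375 it read 61.6 at 6 h, above both DMSO values, and 32 at 24 h, and none of these differences passed the test. It rose in SKMEL5 at 24 h, from 48.8 and 32 to 89.2 (1.17 ± 0.38, adjusted p 0.0478). That call was lost without any one of 9 DMSO arrays, all but those of A375 at 24 h and SKMEL5 DMSO 24 h replicate 1 (adjusted p 0.0527 to 0.175), and with the replicate block (0.0835).

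Of the DNA repair genes, DDB2, the damage sensor of nucleotide excision repair and the member with a full p53 site in its window, fell at 24 h in every line. SKMEL5 read 873 and 895 against 759 at 6 h and 787 and 755 against 459.9 at 24 h. WM2664 read 759 and 825 against 504 at 6 h and 732 and 604 against 237 at 24 h. A375 read 713 and 663 against 506 at 6 h and 804 and 750.4 against 412 at 24 h. All 6 treated arrays lay below their DMSO pairs, lowest in WM2664 at 24 h. The differences at 24 h were -0.74 ± 0.12, -1.49 ± 0.12 and -0.91 ± 0.12 in SKMEL5, WM2664 and A375 (adjusted p 0.00208, 9.16e-05 and 0.00169). At 6 h they were -0.22 ± 0.12, -0.65 ± 0.12 and -0.44 ± 0.12 (adjusted p 0.249, 0.00556 and 0.0483). The A375 call at 6 h was lost without any one of 10 DMSO arrays, all but those of WM2664 at 24 h (adjusted p 0.0637 to 0.152), and with the replicate block (0.0515), and that of WM2664 at 6 h with the WM2664 arrays alone (0.135).

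The other repair genes were each called in 1 line or none. XPC, which recognises damaged DNA in the same pathway, rose in SKMEL5 at 24 h, from 486 and 393 to 662 (0.60 ± 0.11, adjusted p 0.00423), and its other 5 differences lay between -0.21 and 0.24. POLH fell in SKMEL5 at 24 h, from 75.5 and 49.4 to 33, close to the floor (-0.89 ± 0.22, adjusted p 0.0168), and by the mean of its 6 probe sets the difference was -0.29 (adjusted p 0.221). The POLH call was also lost without the arrays that stood apart (adjusted p 0.1). RRM2B, the p53-inducible subunit of ribonucleotide reductase, read 764 and 932 against 1254 in SKMEL5 at 6 h (0.57 ± 0.17, adjusted p 0.0515), and its other differences, from -0.31 to 0.40, did not pass the test either.

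Of the death receptors, FAS rose in SKMEL5 at 6 h and in WM2664 at both times. The FAS values in SKMEL5 were 163 and 169 against 285 at 6 h and 147 and 168 against 143 at 24 h (0.78 ± 0.13 and -0.14 ± 0.13, adjusted p 0.00528 and 0.49). Those in WM2664 were 342 and 344 against 533 and 363 and 310.1 against 578 (0.64 ± 0.13 and 0.78 ± 0.13, adjusted p 0.0101 and 0.00317). In A375 the treated values of 577 and 503 lay between the DMSO values of 584 and 539 at 6 h and 513 and 441 at 24 h. The WM2664 calls were lost without the arrays that stood apart (0.63 and 0.67, adjusted p 0.0686 and 0.0547), and all 3 calls with the arrays of the line alone (adjusted p 0.0582 to 0.0935).

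TNFRSF10A, above the floor in A375 alone, fell there from 588 and 576 to 427 at 6 h and from 499 and 521 to 426 at 24 h (-0.45 and -0.26, adjusted p 0.00065 and 0.00687). Its fitted SE of 0.04 understates the error, since 4 of the 6 DMSO pairs sit at the floor without any spread, and with the A375 arrays alone the adjusted p was 0.046 at 6 h and 0.0756 at 24 h. A floor of 16 ended both calls (adjusted p 0.421 and 0.682). TNFRSF10B rose in WM2664 at 24 h by 0.28 ± 0.08 (adjusted p 0.0362), a call lost with the mean of its 4 probe sets (log2 difference 0.06), with the replicate block (adjusted p 0.0658) and without any one WM2664 DMSO array or A375 DMSO array of 6 h (adjusted p 0.0536 to 0.0964). EDA2R, a receptor for ectodysplasin, lay at or near the floor and had no called difference, the farthest from 0 being -0.81 ± 0.28 in SKMEL5 at 24 h (adjusted p 0.0596).

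Among the intracellular death and survival factors, AEN and PHLDA3 fell and none rose. AEN, a nuclease of apoptotic cells with a half-site before its start, read 252 and 286 against 263 in SKMEL5 at 6 h and 285 and 265 against 134 at 24 h (-0.03 ± 0.12 and -1.04 ± 0.12, adjusted p 1 and 0.000508). WM2664 gave 142 and 168 against 75.1 and 106 and 102 against 67.6 (-1.04 ± 0.12 and -0.62 ± 0.12, adjusted p 0.000769 and 0.00645). A375 gave 389 and 394 against 257 and 306 and 279 against 221 (-0.61 ± 0.12 and -0.40 ± 0.12, adjusted p 0.0163 and 0.0614). The treated array lay below both DMSO arrays in 5 of the 6 comparisons, the exception being SKMEL5 at 6 h. The A375 call at 6 h was lost without A375 DMSO 6 h replicate 1 or 2 (adjusted p 0.0529 and 0.0601) and without the 3 arrays that stood apart (0.0883), and the WM2664 calls with the WM2664 arrays alone (0.055 and 0.0951).

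PHLDA3, a brake on the survival kinase AKT, fell in A375, from 501 and 514 to 212 at 6 h and from 572 and 456 to 258 at 24 h (-1.26 ± 0.20 and -0.99 ± 0.20, adjusted p 0.00596 and 0.0135). It also fell in WM2664, from 427 and 387 to 237 and from 516 and 413 to 297 (-0.78 ± 0.20 and -0.63 ± 0.20, adjusted p 0.0242 and 0.044). In SKMEL5 it read 197 and 252 against 247 and 231 and 243 against 209, and neither difference passed the test. The treated values in WM2664 and A375 lay below both DMSO values at each time, those in SKMEL5 at 24 h only. All 4 calls were lost without the arrays that stood apart (adjusted p 0.072 to 0.153), with sizes from -1.28 to -0.71. Leaving out single arrays also ended the WM2664 call at 6 h (either WM2664 DMSO 6 h array, adjusted p 0.0551 and 0.0869), that of WM2664 at 24 h (any of 7 DMSO arrays: those of 6 h of A375 and WM2664, of 24 h of SKMEL5, and WM2664 24 h replicate 1, 0.0642 to 0.155) and that of A375 at 24 h (A375 DMSO 24 h replicate 1, 0.051).

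BAX, TRIAP1 and ZMAT3 were called in no line. BAX, the pore-forming death effector, had wide DMSO pairs, such as 288 and 156 in SKMEL5 and 388 and 576 in A375 at 24 h, and its SE of 0.45 was the largest of the members. TRIAP1, a small inhibitor of apoptosome formation, differed by -0.10 to 0.04 (SE 0.08). ZMAT3 read lower than both DMSO values on every treated array, with differences of -0.37 to -0.24 (SE 0.18), and passed the test only as a mean over the lines at 24 h (-0.33 ± 0.11, adjusted p 0.0368). That mean call was lost without any one of the 3 A-485 arrays of 24 h, the 4 SKMEL5 DMSO arrays, WM2664 DMSO 6 h replicate 1 or 2, WM2664 DMSO 24 h replicate 2 or A375 DMSO 24 h replicate 1 (adjusted p 0.0549 to 0.0914), and without the 3 that stood apart (0.119).

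Of the genes of metabolism and redox, TP53I3, a quinone oxidoreductase first described as a p53-induced gene, rose at 24 h in every line. It read 412 and 342 against 854 in SKMEL5 at 24 h, 281 and 266 against 481 in WM2664 and 671 and 726 against 962 in A375. Treated arrays were above both DMSO arrays in all 3 lines, and the rises were 1.19 ± 0.11, 0.81 ± 0.11 and 0.46 ± 0.11 (adjusted p 0.00016, 0.00111 and 0.0249). At 6 h the differences were 0.27 ± 0.11, -0.05 ± 0.11 and 0.25 ± 0.11, and none passed the test. The A375 call at 24 h was lost without A375 DMSO 24 h replicate 1 (adjusted p 0.0898), with the replicate block (0.0503) and without the 3 arrays that stood apart (0.12).

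FUCA1 rose in SKMEL5 and WM2664. SKMEL5 read 830.2 and 825 against 969 at 6 h and 976 and 922 against 1814 at 24 h (0.23 ± 0.07 and 0.93 ± 0.07, adjusted p 0.0574 and 6.34e-05). WM2664 read 487 and 540.2 against 761 and 628 and 618 against 1079.7 (0.57 ± 0.07 and 0.79 ± 0.07, adjusted p 0.00102 and 0.000173). In A375 the treated values of 376 and 391 lay below the DMSO values of 453 and 444 and of 409 and 426, without passing the test (-0.26 ± 0.07 and -0.10 ± 0.07, adjusted p 0.0556 and 0.472). TIGAR rose in WM2664 at 6 h, from 671 and 660.2 to 1120.4 (0.75 ± 0.09, adjusted p 0.000923), and read 568 and 646 against 606 there at 24 h. In SKMEL5 it fell at 24 h from 1577 and 1420.1 to 1202 (-0.32 ± 0.09, adjusted p 0.0306), a call lost without SKMEL5 DMSO 24 h replicate 1 (0.092), with the replicate block (0.0556) and without the arrays that stood apart (0.055). With the WM2664 arrays alone, neither the FUCA1 nor the TIGAR rise at 6 h passed the test (adjusted p 0.0623 and 0.057).

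**Figure D3:**
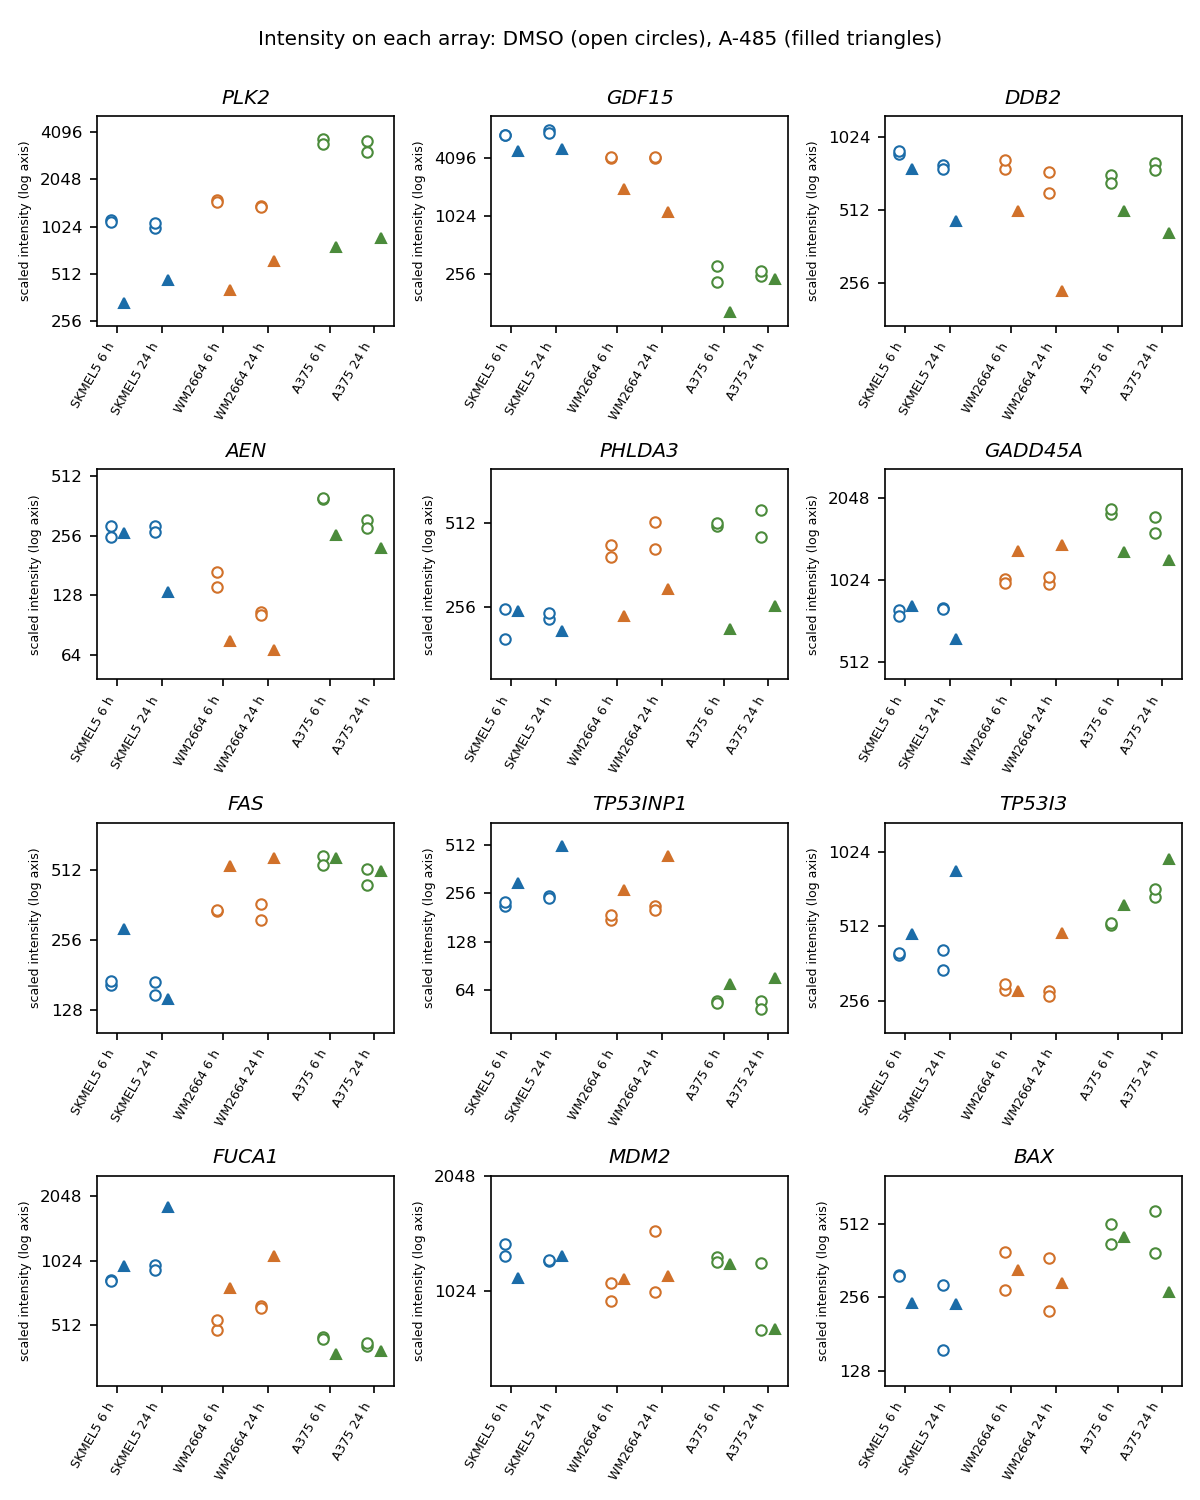
Scaled intensity (log axis) of 12 p53 target genes on each of the 18 arrays, by cell line and time, with DMSO arrays as open circles and A-485 arrays as filled triangles. PLK2 and DDB2 triangles lie below their circles throughout, TP53INP1 triangles above, and those of MDM2 and BAX stay mostly among or beside them.

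Averaged over the 3 lines, 6 members rose and 6 fell at 6 h, where 22.2% and 15.3% of all genes rose and fell, and 6 rose and 9 fell at 24 h (26.2% and 20.7%). These means use the same arrays as the comparisons of single lines. PLK2 (-1.95 ± 0.06 and -1.42 ± 0.06), DDB2 (-0.44 ± 0.07 and -1.05 ± 0.07), AEN (-0.56 ± 0.07 and -0.69 ± 0.07), GDF15 (-0.99 ± 0.11 and -0.89 ± 0.11) and PHLDA3 (-0.63 ± 0.11 and -0.60 ± 0.11) fell at both times (adjusted p 7.68e-07 to 0.00402), as did TNFRSF10A, through A375 alone. TP53INP1 (0.46 ± 0.05 and 0.90 ± 0.05), FUCA1 (0.18 ± 0.04 and 0.54 ± 0.04) and FAS (0.49 ± 0.08 and 0.24 ± 0.08) rose at both times (adjusted p 9.5e-06 to 0.0322). At 6 h FBXO22, XPC and TIGAR also rose, by 0.26 ± 0.04, 0.23 ± 0.06 and 0.39 ± 0.05. At 24 h TP53I3, RRM2B and TNFRSF10B also rose, by 0.82 ± 0.06, 0.28 ± 0.10 and 0.19 ± 0.05, and CCNG1, POLH and ZMAT3 fell, with differences of -0.13 ± 0.03, -0.45 ± 0.13 and -0.33 ± 0.11.

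A fit with 1 treatment effect for all lines, in which the spread between lines enters the error, kept 5 of the 15 mean calls at 24 h and 6 of the 12 at 6 h. At 24 h those that it lost included GDF15, FUCA1 and PHLDA3 (adjusted p 0.0937, 0.0987 and 0.058), and at 6 h AEN, PHLDA3, FUCA1 and FAS (0.0781, 0.132, 0.408 and 0.0524). Each A-485 group is 1 array, so leaving it out removes its line at that time. The mean is then that of the other lines. Leaving out the WM2664 A-485 array of 24 h took the mean of GDF15 to -0.39 (adjusted p 0.0567), that of FAS at 24 h to -0.03, that of CCNG1 to 0.05 and that of TNFRSF10B to 0.15 (adjusted p 0.0789). Leaving out that of 6 h took the mean of FUCA1 to -0.01 and that of TIGAR to 0.20 (adjusted p 0.0542). Without the SKMEL5 A-485 array, the mean of POLH at 24 h was -0.22 and that of FUCA1 at 6 h 0.16 (adjusted p 0.326 and 0.0509). Without the A375 A-485 array of 6 h, PHLDA3 was -0.31 (adjusted p 0.129). The mean call of FAS at 24 h was also lost without A375 DMSO 24 h replicate 2, SKMEL5 DMSO 24 h replicate 1, WM2664 DMSO 24 h replicate 2 or either WM2664 DMSO array of 6 h, and that of POLH without WM2664 DMSO 24 h replicate 2 (adjusted p 0.0529). That of RRM2B was lost without any one of the 3 A-485 arrays of 24 h, the 4 A375 DMSO arrays, SKMEL5 or WM2664 DMSO 24 h replicate 1 or either WM2664 DMSO array of 6 h (adjusted p 0.0547 to 0.194). That of XPC at 6 h was lost without any one A-485 array of 6 h or replicate 1 of the DMSO pair of 6 h of any line (0.0534 to 0.0718). Without the 3 arrays that stood apart, the mean calls of FAS, POLH, RRM2B, TNFRSF10B and ZMAT3 at 24 h and of XPC at 6 h were lost, and with the mean of all probe sets those of POLH, TNFRSF10A, TNFRSF10B and ZMAT3 at 24 h. TNFRSF10A read a mean difference of 0.00 without the A375 A-485 array of either time.

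The response of A375 was then set against the mean response of SKMEL5 and WM2664, which asks whether the lines differed and uses the same arrays again. At 6 h no member was higher and 5 were lower in A375 (5.53% and 6.16% of all genes), and at 24 h 2 were higher and 7 lower (12.2% and 12%). FUCA1 differed at both times, by -0.66 ± 0.09 and -0.96 ± 0.09 (adjusted p 0.003 and 0.000237), with positive differences in the other lines and negative ones in A375. GADD45A also differed at both times (-0.72 ± 0.10 and -0.45 ± 0.10, adjusted p 0.00426 and 0.0182). Without the WM2664 A-485 array of 24 h, which leaves SKMEL5 alone to compare with, the later difference was -0.04. The fall of PLK2 was larger in A375 at 24 h, with a difference of -0.79 ± 0.12 (adjusted p 0.00306), and at 6 h the difference of -0.42 ± 0.12 did not pass the test (adjusted p 0.0718). TP53INP1 and TP53I3 rose less in A375 at 24 h, with differences of -0.50 ± 0.10 and -0.54 ± 0.13 (adjusted p 0.0123 and 0.0236).

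GDF15 was the other way round at 24 h (1.07 ± 0.23, adjusted p 0.014), as was CCNG1 (0.35 ± 0.06, adjusted p 0.00528). Without the WM2664 A-485 array, which leaves SKMEL5 alone to compare with, they were 0.41 and 0.11. XPC at 24 h (-0.50 ± 0.13, adjusted p 0.0306) and PHLDA3 at 6 h (-0.94 ± 0.24, adjusted p 0.0467) were likewise -0.20 and -0.48 without the SKMEL5 A-485 array, which leaves WM2664 alone to compare with. XPC also missed the threshold without either A375 DMSO array of 24 h or WM2664 DMSO 24 h replicate 1, and PHLDA3 without A375 or WM2664 DMSO 6 h replicate 1 or 2, SKMEL5 DMSO 6 h replicate 1 or SKMEL5 DMSO 24 h replicate 1 or 2 (adjusted p from 0.0555). FAS at 6 h (-0.67 ± 0.16, adjusted p 0.0366) missed it without any one of the 6 DMSO arrays of 6 h or the SKMEL5 A-485 array (-0.73 to -0.60, adjusted p 0.0608 to 0.102). TP53I3 missed it without A375 DMSO 24 h replicate 2 (-0.48) or the SKMEL5 A-485 array (-0.35, adjusted p 0.0684 and 0.165). TNFRSF10A, at the floor in the other lines, gave here its A375 difference at each time. Without the 3 arrays that stood apart, 2 of the 5 differences at 6 h and 5 of the 9 at 24 h passed the test, FUCA1 and TNFRSF10A at both times and PLK2, GDF15 and CCNG1 at 24 h. With unscaled values 0 passed it by limma at either time, and 6 and 3 had an unadjusted p under 0.05.

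From 6 h to 24 h the mean response moved up for 4 members and down for 5 (9.58% and 11% of all genes). The rises of TP53I3, TP53INP1 and FUCA1 were larger at 24 h, by 0.66 ± 0.09, 0.44 ± 0.07 and 0.36 ± 0.06 (adjusted p 0.00219, 0.00488 and 0.00464). The fall of PLK2 was smaller at 24 h, by 0.53 ± 0.08 (adjusted p 0.00407, and 0.0534 without the 3 arrays that stood apart), and that of DDB2 larger, with a difference of -0.61 ± 0.09 (adjusted p 0.00421). TIGAR, POLH, FBXO22 and CCNG1 moved down, with differences of -0.44 ± 0.07, -0.77 ± 0.18, -0.20 ± 0.05 and -0.17 ± 0.04 (adjusted p 0.00634 to 0.0308). Leaving out an A-485 array removes its line from the mean at that time only, and some of these depended on it. FUCA1 was 0.15 without that of A375 at 6 h and 0.17 without that of SKMEL5 at 24 h. TIGAR was -0.25 without that of WM2664 at 6 h, and POLH -0.55 without that of SKMEL5 at 24 h. Each of these missed the threshold. CCNG1 was 0.01 without the WM2664 A-485 array of 24 h, and -0.13 and -0.12 without those of SKMEL5 and A375 at 6 h, and missed the threshold in each case. FBXO22 missed it without the A-485 arrays of WM2664 at 6 h, A375 at 24 h or SKMEL5 at either time, or without SKMEL5 DMSO 6 h replicate 2 (-0.19 to -0.15). POLH and FBXO22 also missed it with the mean of all probe sets (adjusted p 0.192 and 0.34), FBXO22 and CCNG1 with 75th-percentile scaling (0.0751 and 0.238), and POLH without the arrays that stood apart (0.141). With unscaled values 0 members passed the test by limma, and 4 had an unadjusted p under 0.05.

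**Figure D4:**
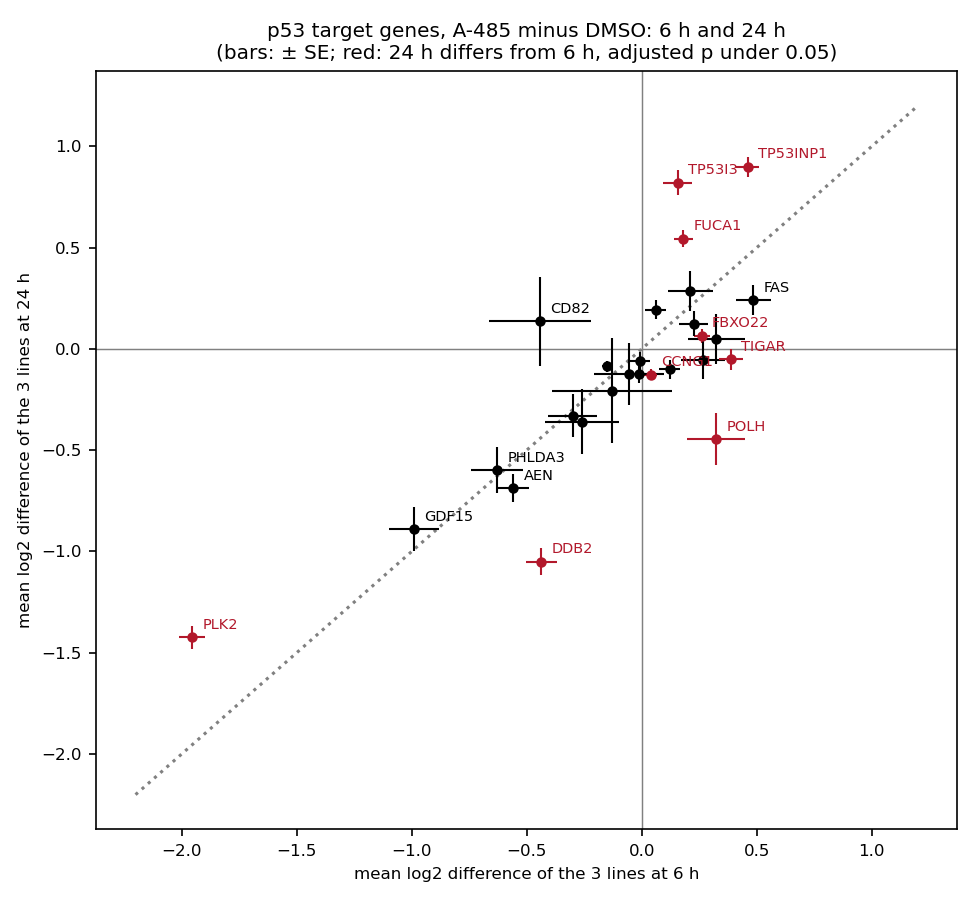
Mean log2 difference of A-485 minus DMSO over the 3 lines at 6 h (horizontal) and 24 h (vertical) for the 27 tested p53 target genes, with bars of ± SE, the diagonal dotted and genes whose response differed between times (adjusted p under 0.05) in red. PLK2 is lowest at both times, at -1.95 and -1.42, DDB2 lies below the diagonal, and TP53I3, TP53INP1 and FUCA1 lie above it.

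Other genes of the pathway came from lists drawn up alongside the 30. Of 45 further p53 targets tested, 3 rose and 5 fell in SKMEL5, 4 and 10 in WM2664 and 6 and 9 in A375 at 6 h, and 9 and 10, 9 and 11, and 3 and 10 in the same lines at 24 h. The shares of all genes that rose and fell were 12.5% and 9.46%, 15% and 10.8%, and 5.78% and 6.93% at 6 h, and 20.3% and 15.3%, 17.8% and 14.7%, and 9.05% and 8.41% at 24 h. As means over lines 7 rose and 16 fell at 6 h and 9 and 16 at 24 h, with medians of -0.09 and -0.03, beside 22.2% and 15.3% of all genes at 6 h and 26.2% and 20.7% at 24 h. A fit without the 3 arrays that stood apart had 0 that rose and 4 that fell in A375 at 6 h and 0 and 8 at 24 h, 4 and 8 in WM2664 and then 5 and 8, and 2 and 5 in SKMEL5 and then 6 and 8. The unscaled values gave 0 and 1 in A375 at 6 h and 0 and 3 at 24 h, 4 and 0 in WM2664 and then 3 and 1, and 2 and 0 in SKMEL5 and then 2 and 4. Counts under these alternatives stand without the share of all genes called in the same setting. They are not read as particular to p53 targets. SERTAD1, a regulator of cyclin-dependent kinase 4, rose as a mean by 1.34 ± 0.12 and 1.32 ± 0.12 at 6 h and 24 h (adjusted p 0.00012 and 8.33e-05). IGFBP3, which binds insulin-like growth factors, fell, with mean differences of -0.77 ± 0.03 and -1.91 ± 0.03, and in A375 at 24 h read 565 and 567 with DMSO and 34.9, next to the floor, with A-485. STEAP3, a metalloreductase, fell, with differences of -0.47 ± 0.07 and -1.42 ± 0.07, as did ATF3, a stress-induced transcription factor, with -0.63 ± 0.15 and -1.32 ± 0.15. ATF3 lay at the floor on the WM2664 A-485 arrays of both times, so that its mean differences hold a value limited by the floor. In the lines where it was above the floor on every array it read 239 and 238 with DMSO and 69.2 with A-485 in SKMEL5 at 24 h, and 247 and 300.3 against 151 in A375.

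CDKN1A, the p21 inhibitor of cyclin-dependent kinases and the best known p53 target, is named here outside the rule, after its values were seen. It read 831 and 872 against 2096 in SKMEL5 at 6 h and 881 and 853 against 2271 at 24 h. WM2664 read 817 and 849 against 2358 at 6 h and 1052 and 1004 against 2968 at 24 h. A375 read 1049.9 and 1027 against 869 at 6 h and 1212 and 1126 against 1074 at 24 h. It thus rose in SKMEL5 (1.30 ± 0.07 and 1.39 ± 0.07) and WM2664 (1.502 ± 0.07 and 1.53 ± 0.07). A375 was called the other way, as a fall, at 6 h only (-0.26 ± 0.07, adjusted p 0.043). Leaving out the 3 arrays that stood apart moved this fall to -0.24 and ended the call. The later A375 value, -0.12 ± 0.07, missed the threshold (adjusted p 0.284). Set against the other lines, its response in A375 was lower, with differences of -1.66 ± 0.08 at 6 h and -1.58 ± 0.08 at 24 h (adjusted p 3.8e-05 and 1.74e-05). Without the 3 arrays that stood apart, those differences were -1.63 and -1.57 (adjusted p 0.00582 and 0.0026).

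The genes that p53 and p21 repress through the DREAM complex, here 16 genes of the G2 phase and mitosis, fell at 24 h in SKMEL5 and WM2664. There 15 and 14 of 16 fell and none rose, with medians of -1.95 and -0.53, while in A375 2 rose and 1 fell with a median of 0.07. Of all genes, 15.3% and 14.7% fell in SKMEL5 and WM2664 at 24 h, and 9.05% rose and 8.41% fell in A375. CDK1, the mitotic kinase, read 1022 and 1084 against 104 in SKMEL5 at 24 h, 2358 and 2237 against 1536 in WM2664 and 1888 and 1879 against 2269 in A375 (-3.34 ± 0.06, -0.58 ± 0.06 and 0.27 ± 0.06). The mitotic kinase AURKB and the cyclin CCNA2 differed by -4.02 ± 0.19 and -2.69 ± 0.12 in SKMEL5, -1.36 ± 0.19 and -0.73 ± 0.12 in WM2664 and -0.43 ± 0.19 and 0.07 ± 0.12 in A375. The mitotic gene CDC20 read 627 and 545 against 156 in SKMEL5 at 24 h and 1189 and 1137 against 603 in WM2664. In A375 CDC20 was lower with A-485 too, at 3932 and 3894 against 2953. The response at 24 h was higher in A375 than in the other lines for 15 of the 16, with a median of 1.198, and with unscaled values for 1, with a median of 1.11. Of all genes, 12.2% were higher in that contrast. At 6 h none fell, and 8, 5 and 1 of 16 rose in SKMEL5, WM2664 and A375, where 12.5%, 15% and 5.78% of all genes rose. Counts of these genes under an alternative stand without the share of all genes called in the same setting. They are not read as particular to these genes. The numbers that rose at 6 h were 6, 4 and 0 without the 3 arrays that stood apart, and 0 in each line with unscaled values. Without the 3 arrays that stood apart 9 fell in WM2664 at 24 h, and with unscaled values none did there and 15 in SKMEL5.

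Of 30 genes of the p53 core and its regulators, 8 rose and 2 fell as means over lines at 6 h, and 7 rose and 5 fell at 24 h, where 22.2% and 15.3% of all genes rose and fell at 6 h and 26.2% and 20.7% at 24 h. The counts under an alternative that follow have no share of all genes beside them and are not read as particular to these genes. With the 3 arrays that stood apart left out, 7 rose and 2 fell at 6 h and 7 rose and 8 fell at 24 h, and with unscaled values 3 rose at 6 h and 2 at 24 h and none fell. The targets of A-485 were among those that rose as means: CREBBP by 0.46 ± 0.09 at 6 h and 0.70 ± 0.09 at 24 h, and EP300 by 0.37 ± 0.11 and 0.51 ± 0.11 (adjusted p 0.000496 to 0.0326). CREBBP rose in SKMEL5 and WM2664 at both times (0.65 to 0.88) and EP300 in those lines at 24 h (0.59 and 0.60). Neither was called in A375, where CREBBP differed by 0.03 and 0.38 and EP300 by 0.02 and 0.33, and the test of A375 against the other lines was not passed for either gene at either time (adjusted p 0.0672 to 0.492). MDM4, the relative of MDM2 that also holds p53 in check, differed by -0.01 ± 0.11 and -0.11 ± 0.11 (adjusted p 0.971 and 0.458).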

How the data were processed

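Each of the 18 samples gave total RNA for 1 single-colour array, the Affymetrix HG-U133 Plus 2.0. The authors deposited linear intensity values per probe set, of which 19.35% to 22.89% per array were below 0. The software behind them is not given in the sources used here. Arrays were quantile-normalized on the linear scale, floored at 32 and put on the log2 scale. Of 54613 probe sets, 41091 had 1 gene symbol, 1801 several and 11721 none. Symbols were updated through Entrez IDs for 41037. Each gene was read from its brightest single-symbol probe set, and genes with a mean log2 at least 0.01 above the floor were tested. The model, with a mean for each of the 12 groups, was fitted to the 18 arrays together (limma 3.58.1, R 4.3.3), and p-values were adjusted by Benjamini-Hochberg over 13933 genes. A call is an adjusted p under 0.05. With 1 A-485 array per group, the 6 residual degrees of freedom come from the DMSO pairs. The fit was tested on simulated data in which A-485 and DMSO arrays were made to vary alike. That test therefore cannot check whether the single A-485 arrays vary like the DMSO pairs.

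The members and the other lists were chosen with earlier results of these data known. All members are named. From a longer list, up to 4 called members with the largest mean response over lines are named, with MDM4, EP300 and CREBBP always. The deviations of same-numbered DMSO arrays correlated at -0.0348 to 0.058 between groups, so the replicate numbers showed no batch shared by the groups. With 1 A-485 array per group, pairing with the DMSO array of the same number, line and time cannot be tested. The main model pairs no samples. Alternatives covered scaling, floor, filter, probe set choice, a replicate block, 1 treatment effect over lines, each array left out, and the 3 arrays that stood apart left out. Leaving out an A-485 array, the only one of its group, removes its line from the comparisons at that time. Leaving out a DMSO array lowers the residual degrees of freedom for every gene. These 3 were set by genes above 1000 in another line and below 40 in their own that exceeded the paired array by at least 0.5% of the other line's level. The fit of each line's 6 arrays alone was added after seeing the data. BTG2 and FDXR were not analysed here.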

Additional observations from a re-analysis of the deposited data

Results flagged for a closer look

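Of the p53 target genes, 5 responded differently in A375 than in the other lines at 6 h by the test of the difference itself, with limma and Benjamini-Hochberg adjustment, all of them lower in A375, where 5.53% of all genes tested were higher and 6.16% lower. The differences were -0.94 for PHLDA3, -0.72 for GADD45A, -0.67 for FAS, -0.66 for FUCA1 and -0.45 for TNFRSF10A on the log2 scale (adjusted p 0.00207 to 0.0467). The value of TNFRSF10A is that of A375 alone, since the gene lay at the floor in the other lines and had no measurable response there.

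At 24 h 9 members did so, where 12.2% of all genes were higher in A375 and 12% lower. GDF15 (1.07) and CCNG1 (0.35) were higher in A375, and FUCA1 (-0.96), PLK2 (-0.79), TP53I3 (-0.54), XPC (-0.50), TP53INP1 (-0.50), GADD45A (-0.45) and TNFRSF10A (-0.26) lower (adjusted p 0.000237 to 0.0306). As at 6 h, the value of TNFRSF10A is that of A375 alone. Its SE understates the error, since the DMSO pairs of the other lines sit at the floor without any spread.

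The mean response over lines differed between 24 h and 6 h for 9 members, tested in the same way, of which 5 (TP53I3, PLK2, TP53INP1, FUCA1 and CCNG1) are also among the 9 above. Of all genes, 9.58% were higher at 24 h and 11% lower. It was higher at 24 h for TP53I3 (0.66), PLK2 (0.53), TP53INP1 (0.44) and FUCA1 (0.36), and lower for POLH (-0.77), DDB2 (-0.61), TIGAR (-0.44), FBXO22 (-0.20) and CCNG1 (-0.17), with adjusted p of 0.00219 to 0.0308. In each of these comparisons every A-485 group is a single array.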

How the results depend on the processing

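Of 169 calls among the p53 target genes over the 14 comparisons, limma kept 159 with 75th-percentile scaling, 150 with a floor of 16, 153 with no filter, 162 of 163 with a mean log2 of at least 6, 149 with the mean of all probe sets, 158 without the probe sets marked for cross-hybridisation and 124 without any one array. The deposited values, unscaled, with a floor of 1, kept 59, and the counts of calls were then 0 in SKMEL5 and WM2664 at both times, 1 in A375 at both times, 5 for the mean of lines at both times, 0 for A375 against the other lines at both times, 0 for 24 h against 6 h and 12 for WM2664 against SKMEL5 with DMSO. Without the 3 arrays that stood apart 125 calls were kept, with counts of 8 in WM2664 at 24 h, 3 in A375 at 6 h, 4 in A375 at 24 h, and 2 and 5 for A375 against the other lines at 6 h and 24 h. That contrast had 2 calls at 6 h with a floor of 16 and 3 with no filter. The fit of 1 treatment effect over lines left 5 calls at 24 h, and the fits of single lines 2 in SKMEL5 and 3 in WM2664 at 6 h and 3 in A375 at both times. The cause of these changes was not tested. The 169 calls include 19, 24 and 21 between lines with DMSO. The share of all genes called in each setting is not given beside these counts, so they are not read as particular to the p53 targets.

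With single arrays left out, the counts ran from 4 to 7 in SKMEL5 at 6 h (7 without SKMEL5 DMSO 24 h replicate 1 or 2), from 5 to 8 in A375 at 6 h (5 without A375 DMSO 6 h replicate 1 or 2) and from 3 to 6 for A375 against the other lines at 6 h (3 without A375 or SKMEL5 DMSO 6 h replicate 1, or WM2664 DMSO 6 h replicate 1 or 2). The mean difference of FUCA1 at 6 h ran from -0.0146 to 0.398, of CCNG1 at 24 h from -0.245 to 0.0541, of FAS at 24 h from -0.0288 to 0.433 and of CCNG1 at 24 h against 6 h from -0.284 to 0.0145. Each of these turned its sign without the WM2664 A-485 array of that time, or of 24 h in the last case, which takes WM2664 out of the mean at that time. Other signs that turned were those of TNFRSF10A at 24 h in A375 against the other lines (0.661) and of DDB2 with DMSO in A375 against SKMEL5 (0.0432), both in unscaled values, and of TNFRSF10B with DMSO in A375 against SKMEL5 (0.0355) and WM2664 (0.0424) by the mean of all probe sets.

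The replicate block kept 152 calls, with 5 and 9 members called in SKMEL5 at 6 h and 24 h, 11 at both times in WM2664 and 6 at both times in A375. Whether the numbers pair samples within a line and time cannot be told. Dim signal limits CD82, EDA2R, PLK3, POLH and TNFRSF10A, which lie at or near the floor in part of the lines, and TP53INP1 in A375.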
